A study of Homo sapiens with 6 samples.

Results

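A set of 5635 H3K4me2 regions of LNCaP prostate cancer cells, which respond to androgen, was listed in vehicle and after 24 h of GSK2879552, but not after 4 h. GSK2879552 inhibits the demethylase LSD1 (KDM1A), and the H3K4me2 mark was mapped by ChIP-seq, the sequencing of DNA immunoprecipitated with an antibody to it. The members were chosen from the deposited peak lists: records of the 3 lists on chromosomes 1 to 22 were merged into 147111 union regions wherever they overlapped by at least 1 bp, and a union region was kept if it held a vehicle record and a GSK 24 h record and no GSK 4 h record. They made up 3.83% of all union regions and covered 2.68 Mb. Of the 76432 union regions with a vehicle and a GSK 24 h record, 7.37% lacked a GSK 4 h record.

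The cells of all groups were the same established line, kept in hormone-depleted, charcoal-stripped serum before treatment. The vehicle group received no GSK2879552. Per the treatment labels, the GSK 4 h and GSK 24 h groups received the androgen DHT together with the inhibitor, whereas the treatment protocol names the inhibitor alone, so an effect of DHT and an effect of the inhibitor cannot be told apart. The 2 replicates of a group went into a single deposited peak list. No spread between replicates can thus be given, no difference between groups could be tested, and the intervals given with shares are Wilson 95% intervals that cover counting error only. The groups were separate samples, so "not listed at 4 h" describes a list and not a region followed in the same cells, and the mark on fewer cells cannot be told apart from less mark per cell.

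H3K4me2 is the dimethylated form of lysine 4 on histone H3 and is found at enhancers and around active promoters. LSD1 removes mono- and dimethyl groups from this lysine as part of the CoREST and NuRD complexes, and in prostate cancer cells it also works as a coactivator of the androgen receptor. Inhibition of its catalytic activity is known to raise H3K4me2 at sites where LSD1 is active. The lists use hg19 positions and an hg19 genome and annotation were not used here, so the regions are given by position, their genes were not analysed here, and the label of the cell line was not checked against marker genes.

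The depth was similar in the 3 lists, at 9.43 (vehicle), 10.1 (GSK 4 h) and 8.98 (GSK 24 h) tags per kb of effective genome, as recovered from the peak values. The fragment length, taken from the shortest record, was 221 bp in vehicle and 219 bp at 24 h but 186 bp at 4 h. On chromosomes 1 to 22, 97240 records were listed in vehicle, 124364 after 4 h and 123292 after 24 h. The list from which the members are missing thus had the most records, the most tags per kb and the shortest fragments. The part of these values in the members' absence was not tested.

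The regions unlisted at 4 h were mostly weak in both lists that held them. The summit of a median member was covered by 14 fragments in vehicle (25th to 75th percentile 12 to 18, highest 157) and by 16 at 24 h (13 to 22, highest 181). Regions listed in all 3 groups had medians of 27 fragments in vehicle and 30 at 24 h. The median fold enrichment of the members over their local background was 4.22 in vehicle and 4.25 at 24 h. Ranked within its own list, the median member stood at the 31.4th percentile of fold in vehicle and at the 37.7th at 24 h. Of the 5635 regions, 3159 were below the median of fold in both lists and 636 were above it in both. Both values passed the 75th percentile in 49 regions and the 90th in 3. These counts were not made for other regions. In regions of all 3 lists, the median fold percentile was 59.95 in vehicle and 67.6 at 24 h. The highest 25% of them stood above 81.1 in vehicle and above 85.0 at 24 h. A low rank was not particular to the members. The median fold percentile in vehicle was also 31.4 in the 4330 regions listed in vehicle and at 4 h only. It was 31.4 as well in the 8051 regions of the vehicle list alone.

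Summit heights put this on a common scale. Height is the summit pileup (the fragments covering the summit) relative to that list's genome-wide background, which was 2.08 fragments in vehicle, 1.88 at 4 h and 1.97 at 24 h. The lower of the vehicle and 24 h heights was closely tied to whether a region was also listed at 4 h. Where it was under 5, 27.9% (25.9 to 29.9) of 1966 regions had no 4 h record. The share was 15.8% (14.9 to 16.6) between 6 and 7 and 4.53% (4.11 to 5.01) between 10 and 12. At a height of 30 or more, it was 0.194% (0.124 to 0.302), or 19 of 9810 regions. Weak regions therefore supplied most of the members, as 4013 of the 5635 had a lower height under 8.

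**Figure D1:**
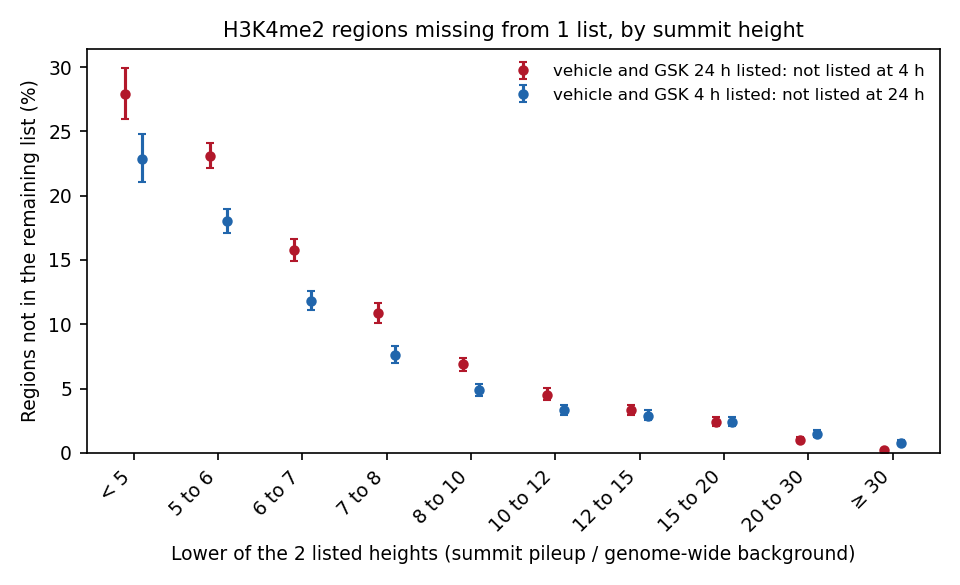
Share of H3K4me2 regions missing from the remaining list, against the lower of their 2 listed heights (summit pileup over genome-wide background). Red points are regions listed in vehicle and at 24 h (share without a 4 h record), blue points are regions listed in vehicle and at 4 h (share without a 24 h record), and bars are Wilson 95% intervals; both fall with height, from 27.9% to 0.194% (red) and from 22.9% to 0.806% (blue).

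The mirror class, listed in vehicle and at 4 h but not at 24 h, held 4330 regions, which were 5.76% of the 75127 regions with vehicle and 4 h records. Both classes share the vehicle list and are given side by side. Below a height of 8, 17.6% (17.2 to 18.1) of regions with vehicle and 24 h records were missing at 4 h and 13.5% (13.1 to 14.0) of regions with vehicle and 4 h records were missing at 24 h. The order was opposite among tall regions. At a height of 20 or more, 0.606% (0.507 to 0.723) were missing at 4 h and 1.09% (0.963 to 1.24) at 24 h. The median vehicle summit was covered by 14 fragments in the members and by 15 in the mirror class, but the 90th percentile was 47 vehicle fragments in the mirror class and 26 in the members. The order of the shares held with all lists cut to equal length, at 10.8% missing at 4 h and 8.91% at 24 h. It turned when a -log10 q of at least 5 (7.45% and 7.64%) or of at least 10 (7.92% and 10.1%) was asked of every record. Regions with both GSK records and no vehicle record were more frequent than either class, at 18.6% of the 86934 regions with both GSK records.

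How far the members lay above the 4 h entry level was estimated by carrying their lower height, with its local background, over to the 4 h library. Of the 5635 regions, 5632 would have passed the lowest -log10 p of the 4 h list (2.95) had that height been kept. The rule all but fixes this count, since the lowest -log10 p was 3.00 in vehicle and 2.92 at 24 h and the members had passed both lists. The lowest value is also a lenient mark, as the 10th percentile of the 4 h records was a -log10 p of 5.32. This second mark would have been passed by 3544 members (62.9%, 61.6 to 64.1), and the median of the 4 h list (10.8) by 185 (3.28%, 2.85 to 3.78). Many members carried a value equal to the second mark up to rounding. The 62.9% thus depends on how such ties fall, which its interval does not cover. The median carried value stood at percentile 12.03 of the 4 h records. The heights carried over are those of regions chosen for being listed in vehicle and at 24 h.

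The regions differed in the background against which the peak caller set their summits, as recovered from the deposited values. The caller's settings and any input control are not given in the sources used here, so what this background was counted from is not known. In 1754 members (31.1%), against 13.6% of all regions with vehicle and 24 h records, the mean background of the vehicle and 24 h lists was at the genome-wide level. These regions had median summits of 13 fragments in vehicle and 12 at 24 h, and a median distance of 13694 bp to the nearest 4 h record. At the other end, 934 members (16.6%) had a background of over 2.5 times the genome-wide level, against 38.3% of all such regions. Their summits were taller, with medians of 28 and 31 fragments, yet their folds were lower, at 3.25 in vehicle and 3.15 at 24 h. The nearest 4 h record was a median of 547 bp away.

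The few tall members had a high background, as tall regions had in general. All 121 members with a height of at least 20 in both lists had a background of over 2.5 times the genome-wide level, as did 93.5% of the 19981 regions of that height with vehicle and 24 h records. Of the 121 members, 90 lay within 1 kb of a 4 h record. The median fold percentiles of the 121 were 4.04 in vehicle and 3.11 at 24 h. For lower heights between 12 and 20, 416 of 7911 regions (5.26%, 4.79 to 5.77) with such a high background were missing at 4 h, against 4 of 3347 (0.120%, 0.0465 to 0.307) where the background was above the genome-wide level but at most 1.7 times it. The same split was seen in the mirror class, at 5.19% (4.69 to 5.73) and 0.143% (0.0612 to 0.335). With a background at the genome-wide level, regions were few. There, 2 of 106 (1.89%, 0.519 to 6.62) were missing at 4 h, and 1 of 153 (0.654%, 0.115 to 3.61) in the mirror class. The measure builds in the split, since at a given height a higher background gives a lower fold and a lower -log10 p. It does not show that regions of high background lost the mark at 4 h.

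A record of the 4 h list was often close by. It lay within 200 bp of 765 members (13.6%, 12.7 to 14.5), within 1 kb of 2071 (36.8%, 35.5 to 38.0) and within 10 kb of 3975 (70.5%, 69.3 to 71.7). The median distance was 3536 bp and the largest 305499 bp. For the mirror class, measured to the nearest 24 h record, 33.7% (32.3 to 35.1) lay within 1 kb and the median distance was 3400 bp. At least 100 kb separated 47 members (0.834%, 0.628 to 1.11) from any 4 h record, against 14 mirror regions (0.323%, 0.193 to 0.542).

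**Figure D2:**
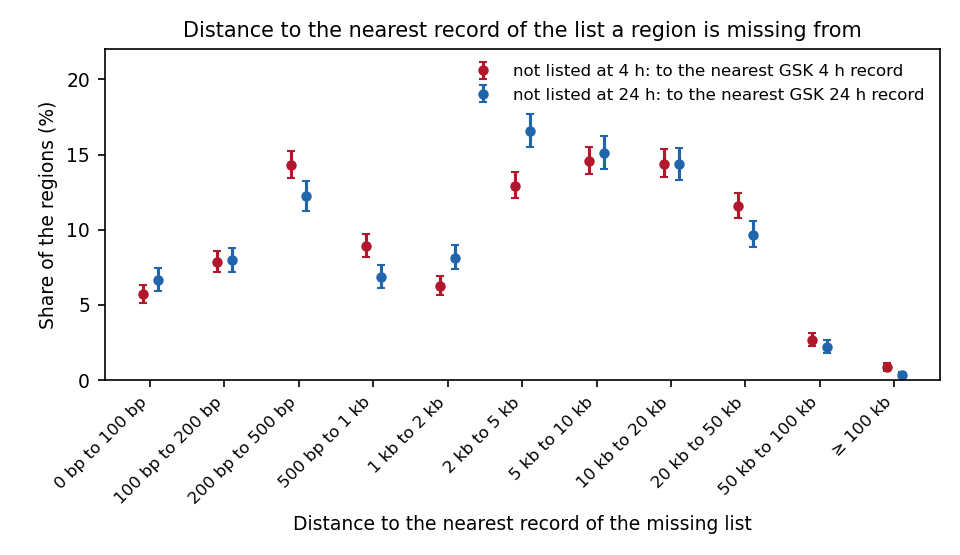
Distance from each region to the nearest record of the list it is missing from, in bins that widen with distance, as a share of the 5635 regions missing at 4 h (red) and of the 4330 missing at 24 h (blue), with Wilson 95% intervals. Within 1 kb lie 36.8% (red) and 33.7% (blue), and 100 kb or more 0.834% and 0.323%.

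Among the 2071 members within 1 kb of a 4 h record, that record belonged to a region of all 3 lists for 1134 (54.8%, 52.6 to 56.9). For 864 (41.7%, 39.6 to 43.9) it belonged to a region without a vehicle record, of which 510 were in the 4 h list alone. In these places a region listed in vehicle and at 24 h stood beside one that was listed at 4 h and not in vehicle. Such regions were frequent in general. Of all union regions with a 4 h record, 70797 were in all 3 lists and 4330 in the mirror class. Without a vehicle record were 21352 in the 4 h list alone and 16137 in both GSK lists. In the mirror class, the neighbouring 24 h record lacked a vehicle record for 497 of 1460 regions (34.04%, 31.7 to 36.5). Members within 1 kb of a 4 h record were taller than members at 10 kb or more, with medians of 16 against 13 fragments in vehicle and 19 against 14 at 24 h. Their fold was lower, at 3.97 against 4.54 in vehicle and 3.91 against 4.72 at 24 h.

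The vehicle and 24 h records of a member lay close together. The rule all but fixes this, since without a 4 h record they can share a union region only by overlapping. A single record of each list made up 5485 of the members (97.3%). The summits lay a median of 71 bp apart (75th percentile 139 bp, largest 829 bp), and 5038 pairs (89.4%) were closer than the vehicle fragment length of 221 bp. In regions of all 3 lists, which were broader, the vehicle and 24 h summits were a median of 87 bp apart. The shorter record of a member was covered over a median of 96.7% of its length, and over less than 50% in 387 members (6.87%). In regions of all 3 lists, the median was 99.2%, and 5.16% were covered over less than 50%.

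Heights at 24 h were on the whole above those in vehicle. Of the 5635 members, 3830 (68.0%, 66.7 to 69.2) were higher at 24 h, where 61.9% of the regions in all 3 lists were. The median log2 ratio of height (24 h over vehicle) was 0.20, with 25th and 75th percentiles of -0.053 and 0.47, and 0.15 in regions of all 3 lists. By fold enrichment, in which each summit is set against its local background, 51.9% of the members and 48.4% of the regions in all 3 lists were higher at 24 h. By fold percentile, the shares were 59.8% and 62.7%. A log2 ratio above 1 was reached by 152 members (2.70%) and one below -1 by 21 (0.373%). In regions of all 3 lists, 2.496% were above 1 and 9.79% below -1. Both classes had to be listed at 24 h, which leaves weak regions little room to fall. The median vehicle height was 6.72 in the members and 12.95 in regions of all 3 lists. The 1st percentile of height of 24 h records at genome-wide background was 4.07. The shares below -1 are thus not comparable between the classes. The records also lengthened, from a median of 296 bp in vehicle to 367 bp at 24 h. The ratio of these medians was 1.24 in the members and 1.17 in the regions of all 3 lists.

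**Figure D3:**
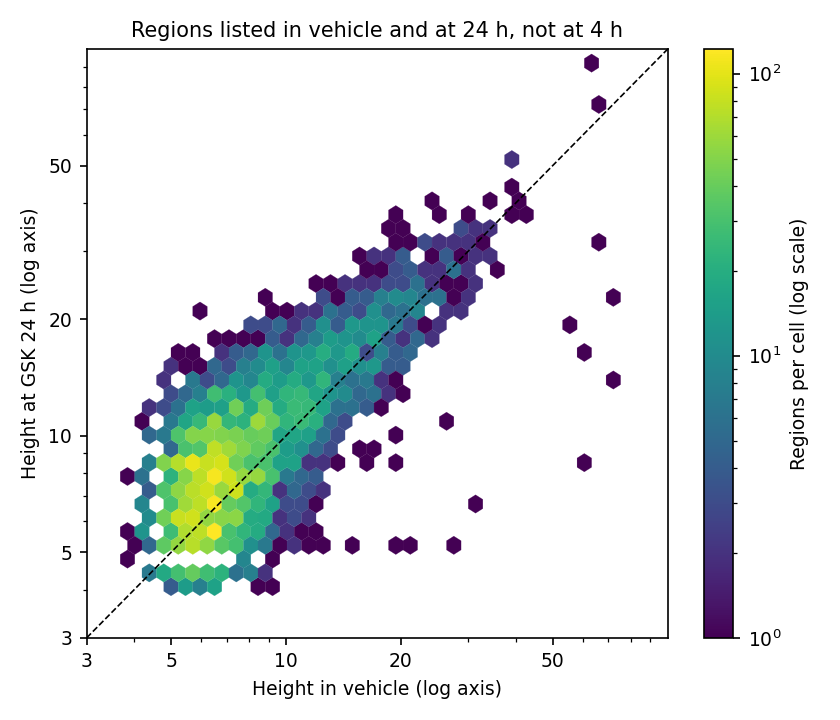
Heights of the 5635 members in vehicle (x axis) and at GSK 24 h (y axis), both summit pileup over genome-wide background on log axes, with the number of regions per cell in colour and equality as a dashed line. Most regions lie at low heights around the line, and 68.0% lie above it.

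The 8 members that ranked highest in both lists had folds of at least 7.58 in each. Rank 1 was chr17:867022-867420 (hg19), covered by 36 fragments in vehicle and 35 at 24 h. Its folds were 10.9 and 10.4, at the 94.7th and 98.3rd percentiles, its summits lay 2 bp apart, and the nearest 4 h record was 14284 bp away. Carried over to the 4 h library, its lower height would have stood at the 83.7th percentile of that list.

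Rank 2 was chr2:236211239-236211636, with 29 fragments in vehicle and 34 at 24 h, folds of 9.73 and 11.8, and summits 3 bp apart. The nearest 4 h record was 32520 bp away. Rank 3 was chr10:62233356-62234160, with 29 and 35 fragments and a 4 h record 5223 bp away. Rank 4 was chr13:59612457-59613245, with 27 and 28 fragments, where no 4 h record lay within 79673 bp. The vehicle and 24 h heights were 13.9 and 17.3 at rank 2, 13.9 and 17.8 at rank 3, and 13.0 and 14.2 at rank 4.

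The next ranks went to chr4:65139639-65140029, with 25 fragments in vehicle and 31 at 24 h, and chr12:91021267-91022081, with 25 in both. Both had a 4 h record nearby, at 1694 and 115 bp. Ranks 7 and 8 were chr5:95660571-95660935, with 24 and 26 fragments and the nearest 4 h record at 5960 bp, and chr1:217641497-217641987, with 24 and 23 fragments and the nearest at 47759 bp. For comparison, the 35509 records of the 4 h list at genome-wide background began at 7 fragments, and 99% of them had at least 8, a height of 4.25. Heights of the 8 regions ran from 11.5 to 17.3 in vehicle and from 11.7 to 17.8 at 24 h. That they lie above this mark follows from their choice by rank.

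**Figure D4:**
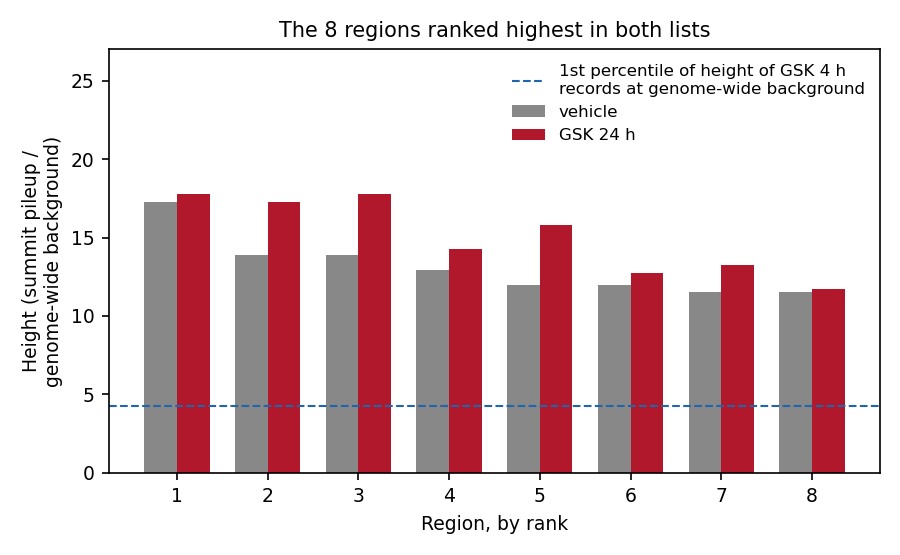
Heights (summit pileup over genome-wide background) in vehicle (grey bars) and at GSK 24 h (red bars) of the 8 members with the highest lower fold percentile, in order of rank. All 16 bars, from 11.5 to 17.8, stand above the dashed line at 4.25. The line marks the 1st percentile of height of 4 h records at genome-wide background. The ranking fixes this, since it chose the highest folds and that percentile was 4.32 in vehicle and 4.07 at 24 h. Some of the regions had backgrounds above the genome-wide level, up to 1.40 times it. None had a 4 h record.

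Among members at least 10 kb from any 4 h record, the first 4 places fell to regions already named, on chromosomes 17, 2, 13 and 1. The last of the 5 places was shared by 5 regions at the same vehicle percentile (83.6). Of these, chr8:16398665-16399035 had the highest 24 h percentile (98.3), with 23 fragments in vehicle, 30 at 24 h and 32855 bp to the nearest 4 h record. Ranked by -log10 p, 4 of the 5 leading members were again those on chromosomes 17, 10, 2 and 13. The other, chr1:234667887-234668376, had a high background, with 49 fragments in vehicle and 53 at 24 h, backgrounds of 3.85 and 4.33 times the genome-wide level, and a 4 h record 182 bp away.

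A few members changed rank sharply between vehicle and 24 h. The largest rise in fold percentile, from 14.5 to 94.96, was at chr3:103010123-103010578, where 10 vehicle fragments were followed by 25 at 24 h. At chr3:118997547-118997869 the pileup went from 10 to 30 fragments, and at chr1:237192790-237193156 from 12 to 32. All of these were among the weakest records in vehicle, near the end of that list, with folds from 3.08 to 3.57.

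The largest falls went the opposite way. At chr15:65359695-65360664 the pileup was 46 fragments in vehicle and 10 at 24 h, with the summits 559 bp apart. At chr6:3163112-3163634 it went from 58 to 10 fragments, and at chr19:47960504-47960985 from 31 to 10. These 3 regions had vehicle folds from 9.27 to 11.3 and a fold of 3.71 at 24 h, so they were listed again at 24 h only as weak records.

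The share of regions unlisted at 4 h differed between chromosomes. It was highest on chromosome 4, at 10.16% (9.22 to 11.2; 375 of 3692 regions), and on chromosome 13, at 9.22% (7.98 to 10.6). It was lowest on chromosome 19, at 3.896% (3.26 to 4.65; 117 of 3003), on chromosome 22, at 4.88% (3.88 to 6.12), and on chromosome 16, at 4.97% (4.23 to 5.82). Chromosomes 19, 22 and 16 are gene-rich, and chromosomes 4 and 13 are gene-poor. These labels were given after the shares were seen, and not every chromosome followed them. Chromosome 18, also gene-poor, had 7.28% (6.15 to 8.61), near the 7.37% of all chromosomes. Chromosomes 3 (8.92%) and 6 (8.57%) ranked next after 4 and 13. Gene density was not measured here. For the mirror class, the shares ran only from 4.69% to 6.74%.

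Height moved with this order. The share of regions with a lower height under 8 was 35.6% on chromosome 4 and 13.9% on chromosome 19, and over the 22 chromosomes it rose with the share unlisted at 4 h (Pearson's r = 0.88, Spearman's rho = 0.80, given as a description since the same regions enter both shares). Among these weak regions alone, the share unlisted at 4 h still ran from 12.7% (chromosome 22) to 20.8% (chromosome 4), with 16.3% on chromosome 19. The part of height, density or base composition in the difference between chromosomes was not tested.

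**Figure D5:**
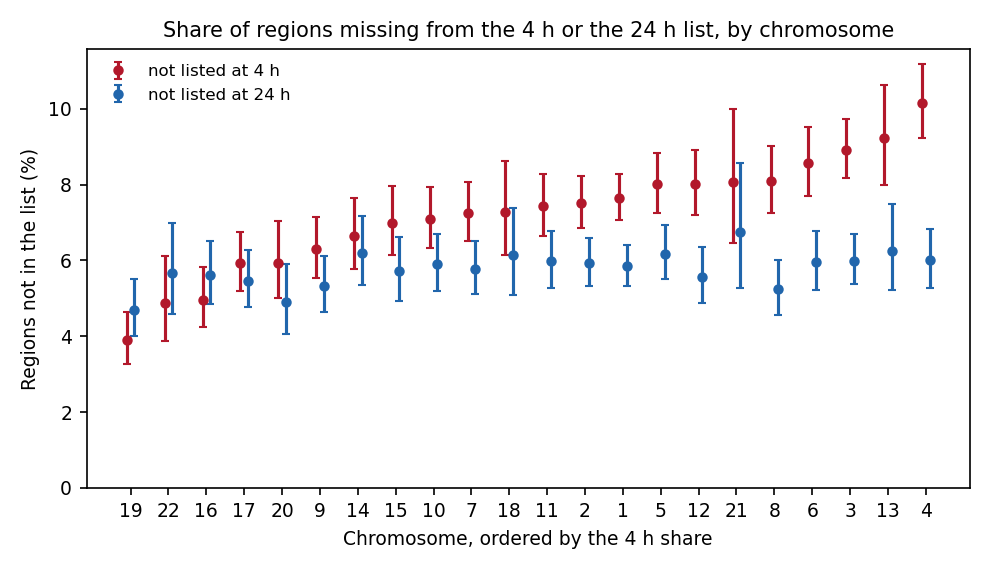
For each of the 22 chromosomes, the share of regions listed in vehicle and at 24 h that had no 4 h record (red) and the share of regions listed in vehicle and at 4 h that had no 24 h record (blue), with Wilson 95% intervals, ordered by the red share. Red runs from 3.896% on chromosome 19 to 10.16% on chromosome 4, blue from 4.69% to 6.74%.

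Members were found in most windows and seldom stood in runs. At 3.83% of all union regions, few of them would be neighbours in any case. They occurred in 2234 of the 2726 windows of 1 Mb that held a region with vehicle and 24 h records, with a median of 2 and at most 11 in such a window. Of the 5635 members, 5153 had no member as the neighbouring union region, 448 stood in pairs, 30 in runs of 3 and 4 in a single run of 4. That run, named after its values were seen, lay on chromosome 7 from 57508920 to 57552615. Its members had 11, 32, 36 and 35 fragments in vehicle and 13, 38, 43 and 38 at 24 h, and the nearest 4 h records were 35654, 7099, 4994 and 1453 bp away. It lay before the longest stretch of that chromosome without a record in any list, which ran from 58054293 to 61055333. Within 1 Mb of the longest such stretch of each chromosome, 9.72% (8.21 to 11.5; 123 of 1265) of regions were unlisted at 4 h, against 7.33% (7.15 to 7.52) elsewhere. The mirror class had the same direction, at 6.85% (5.57 to 8.40) and 5.75% (5.58 to 5.92).

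The edge of the rule was narrow in places, given here as a description. Touching a 4 h record without sharing a base were 3 members. One of them, chr20:20000074-20000496, was covered by 40 fragments in vehicle and 36 at 24 h. Another, chr2:99518296-99518748, had 14 fragments in both lists, and chr14:102437279-102437576 had 22 and 25. Among regions of all 3 lists with 1 vehicle and 1 4 h record, these records did not overlap each other in 517. There they were joined only through 24 h records. Where the vehicle and 4 h records did overlap, the smallest overlap was 1 bp, in 8 regions. In all 8 the 24 h record also overlapped the 4 h record, so these would not have been members without the shared base. The 3 of these with the lowest start positions were chr8:6286872-6287553, with 19 fragments in vehicle, 14 at 4 h and 13 at 24 h, chr12:26083187-26084026, with 12, 11 and 16, and chr15:48650592-48651302, with 11, 11 and 21.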

How the data were processed

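The authors made 1 peak list per group from both replicates; per the labels' processing notes, BWA 0.7.2-r351, SAMtools 0.1.18 and MACS2 2.0.10.20131216 were used, with hg19. Their settings are not given in the sources used here. The deposited columns hold positions, the p-value and q-value as -log10, fold enrichment as a ratio of summit to local background, and a score for display, none of them normalised between lists. The score was not used.

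For each record, a whole-number pileup and a background were found that give both the deposited fold, (pileup + 1)/(background + 1), and the Poisson -log10 p within 0.001. This succeeded for all but 2 records. The lowest background of a list was taken as its genome-wide level and the shortest record as its fragment length. Where a union region held several records of a list, the one with the highest -log10 p was used. Percentiles are within a list, on chromosomes 1 to 22. The steps were tested on simulated data (Python 3.11.15, pandas 2.3.3, SciPy 1.17.1).

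No test was run, since presence in these lists chose the members and no replicates are held apart. The members, the rules and the alternatives were chosen with earlier results of these data known. Regions were named by fixed ranks: the 8 highest by the lower fold percentile, the 5 highest at least 10 kb from a 4 h record, the 5 highest by the lower -log10 p, the 3 largest rises and 3 largest falls in percentile, 3 members touching a 4 h record, and 3 regions of all 3 lists with the smallest overlap among vehicle and 4 h records that did overlap. Planned gene lists and marker genes were not run, as they need an hg19 annotation.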

Additional observations from a re-analysis of the deposited data

Results flagged for a closer look

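Outside chromosomes 1 to 22, which the rule leaves out, the same pattern of vehicle and GSK 24 h records without a GSK 4 h record was found at 160 union regions on chromosome X, at 35 on chromosome Y and at 89 on haplotype, unplaced and other sequences. These were picked out because they lie in data that the comparisons above do not use. They made up 8.54% (Wilson 95% interval 7.36 to 9.89) of the regions with vehicle and 24 h records on chromosome X, 13.0% (9.51 to 17.6) on chromosome Y and 10.9% (8.90 to 13.2) on the other sequences, against 7.37% on chromosomes 1 to 22. The cause of the higher shares was not tested.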

How the results depend on the processing

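No paired analysis was possible because the replicates of a group were deposited as a single list, which also meant that no replicate could be left out. The number of members, as reported 5635, moved by more than 1.5 times to 2782 with a -log10 q of at least 10 in all lists, to 133 with that threshold in the vehicle and GSK 24 h lists alone, to 3738 with records within 1 kb merged, and to 11603 when vehicle records had to share 50% of their length with a 24 h record and under 50% with any 4 h record. Within that range were 4509 at a -log10 q of at least 5, 7602 with lists of equal length, 5830 with chromosomes X and Y, and 5512 without members beside the longest record-free stretches, a setting chosen after seeing the data. The share missing at 4 h stayed above the share missing at 24 h with lists of equal length (10.8% and 8.91%), but turned below it under both q thresholds (7.45% and 7.64% at 5, 7.92% and 10.1% at 10), and the cause was not tested.

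The median fold percentile in vehicle (31.4) was 24.1 when ranked by -log10 p, 33.9 under the q threshold of 5 and 31.3 with chromosomes X and Y. At 24 h (37.7) it was 33.9 and 39.0 in the first 2 of these settings. The share with a 4 h record within 1 kb (36.8%) was 27.8% within 500 bp, 56.0% within 5 kb and 29.5% under the q threshold of 5. The share past the 4 h entry level (99.95%) was 62.9% with the 10th percentile as entry level, 99.98% with the 24 h height alone and 100% when rescaled by tags per kb alone, a setting added after seeing the data. The 62.9% depends on members tied with its entry level. The share higher at 24 h (68.0%) was 51.9% by fold and 59.8% by fold percentile. Summits of 14 to 16 fragments limit what absence from a list can show, since such a region can lie just under the threshold.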
